A study of Mus musculus with 8 samples.

Results

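The comparison described here sets 1 library of mouse macrophages stimulated with tumour necrosis factor (TNFa) against 1 library stimulated with interleukin 1 beta (IL1b), 2 of the 8 libraries of the study. Their treatment labels say which library is which. The macrophages were grown from the bone marrow of C57BL/6 mice for 7 days in medium conditioned by L929 cells, a fibroblast line that secretes the macrophage growth factor CSF1, and poly(A) RNA was sequenced in bulk. TNFa was given at 10 ng/ml for 4 h, IL1b at 10 ng/ml for 4 h, and a culture left untreated served as their baseline. The other 5 libraries were stimulated for 4 h with 1 agent each, namely 1 ng/ml of the mycoplasmal lipopeptide MALP2, 100 nM CpG DNA, 100 ng/ml interferon gamma (IFNg), 10 ng/ml interleukin 4 (IL4) or 1 ng/ml transforming growth factor beta 1 (TGFb1). All cultures had the same medium and marrow background, and neither the number of mice behind a culture nor their age or sex is stated in the labels.

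Macrophages given TNFa had more RNA of the prostaglandin synthase Ptges, the chemokines Ccl22 and Ccl5 and the matrix protease Mmp14 than macrophages given IL1b. The folds were 8.13, 7.37, 6.19 and 4.95. Of 48 interferon response genes, 47 leaned the same way, against 47.8% of all genes, and 8 passed 2-fold. Their median log2 ratio to untreated cells was 0.19 in TNFa and -0.39 in IL1b. Macrophages given TNFa had less RNA of the anion carrier Slco2b1, the neutrophil chemokine Cxcl1 and the replication helicase subunit Mcm2. These were 5.92, 3.78 and 3.78-fold higher in IL1b. Folds are taken on FPKM + 1, where FPKM is a level scaled by transcript length, and each rests on 1 library per stimulus.

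TNFa and IL1b are cytokines that macrophages both release and sense. TNFa binds the receptors Tnfrsf1a and Tnfrsf1b and signals through TRADD, TRAF and RIPK proteins, whereas IL1b binds Il1r1 with its partner Il1rap and signals through MyD88 and IRAK kinases, a route shared with most Toll-like receptors. Both routes end in the kinases that free the transcription factor NF-kB and in MAP kinases, so that many of their target genes are held in common. In macrophages, TNFa is also known to induce a small amount of interferon beta, which acts back on the same cells through its own receptor.

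Each stimulus was represented by 1 library, so no difference below has a replicate check and no p-value was computed. Values are FPKM, fragments scaled by transcript length and by a library size set in the authors' processing. The authors' own lower and upper bounds for that library are in parentheses. A gene was counted as higher or lower in TNFa when the log2 ratio of FPKM + 1 was at least 1 in size, which is 2-fold, and bounds that do not touch are called separate. Of 12353 genes at 1 FPKM or more in either library, 209 (1.69%) were higher and 154 (1.25%) were lower in TNFa than in IL1b, and the median log2 difference was -0.012, with 47.8% of genes above 0. For 82 of the higher genes (0.664%) and 39 of the lower genes (0.316%) the bounds were also separate. The central 90% of the 11750 genes that reached 1 FPKM in both lay between -0.46 and 0.51 on the log2 scale. Depth is unknown, because the tables hold no counts. In the FPKM as deposited, a single read added 1.10 times as much in TNFa as in IL1b, judged from genes of low value. In bulk RNA, fewer cells of a type and less RNA per cell cannot be told apart.

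Genes that are not protein-coding made up 75 of the 209 higher genes and 98 of the 154 lower genes, mostly snoRNA, snRNA and miRNA genes, pseudogenes and identifiers with no annotation. Of the 2311 genes of these kinds compared, 7.49% passed the 2-fold rule in either direction, against 1.89% of the 10042 protein-coding genes. Among protein-coding genes alone, 134 (1.33%) were higher and 56 (0.558%) lower in TNFa, 81 (0.807%) and 36 (0.358%) of them with separate bounds. The single genes named from here on are protein-coding, while counts over all genes include every kind unless protein-coding genes are stated.

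**Figure D1:**
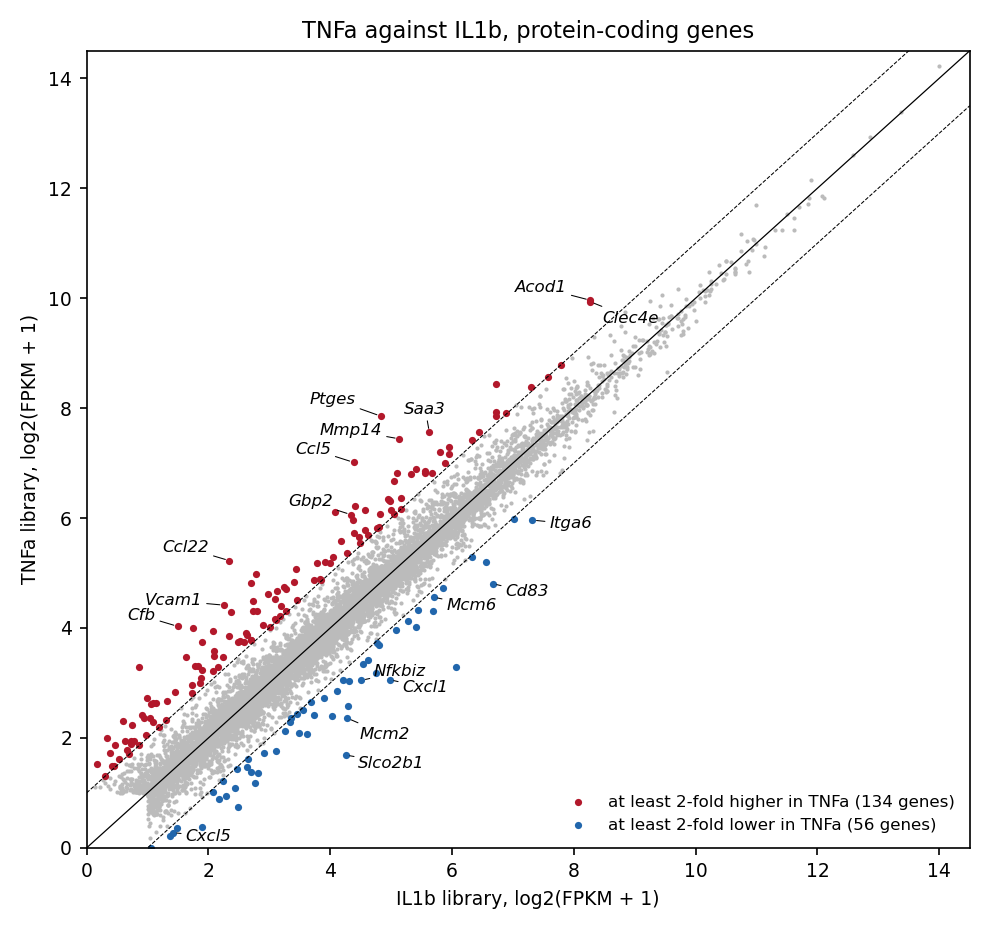
Log2(FPKM + 1) of each of the 10042 protein-coding genes in the TNFa library (vertical axis) and in the IL1b library (horizontal axis). Points above the upper dashed line are the 134 genes at least 2-fold higher in TNFa and points under the lower dashed line the 56 genes at least 2-fold lower. Most genes lie along the solid line of equal value.

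Among the 21 pairs that the 7 stimulated libraries form, TNFa and IL1b were 2-fold apart at 363 genes (2.94%), the second fewest after MALP2 and CpG at 230 genes (1.89%). Over genes of all kinds, TNFa and CpG were apart at 492 genes (3.99%), IL1b and TGFb1 at 578 (4.65%), and TNFa and MALP2 at 584 (4.73%). With protein-coding genes alone, the order of the last 2 pairs turned round, at 401 genes for IL1b and TGFb1 and 362 for TNFa and MALP2. The IL1b library was 776 genes (6.29%) from MALP2 and 781 (6.33%) from CpG. IFNg and IL4 were farthest apart, at 2602 genes (20.5%). These counts have no replicate error, and each library enters 6 of them.

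**Figure D2:**
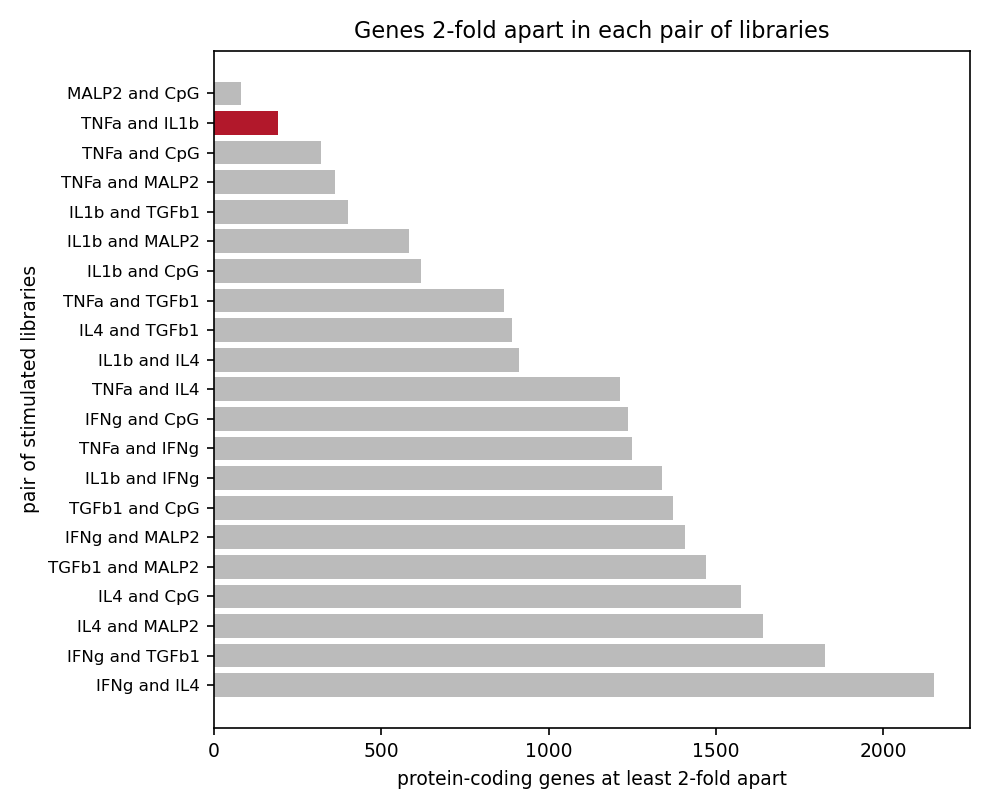
Number of protein-coding genes at least 2-fold apart in each of the 21 pairs of stimulated libraries, with the pair of TNFa and IL1b in red. That pair has 190 such genes, against 79 for MALP2 and CpG and 2152 for IFNg and IL4.

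Receptor transcripts differed by less than 2-fold between the stimuli. Tnfrsf1a, the receptor for soluble TNFa found on most cells, had 96.8 FPKM in the TNFa library, 98.5 FPKM in the IL1b library and 97.6 FPKM in the untreated library, a log2 difference of -0.025 between the stimuli. Tnfrsf1b, the second TNFa receptor, had 861 FPKM in TNFa, 457 in IL1b and 243 in untreated cells, which leaves it within the 2-fold rule between the stimuli at 0.91 with overlapping bounds. The receptor chain that carries the IL1b signal was scarce in every one of these libraries. Il1r1 had 0.634 FPKM in TNFa (0.304 to 0.965), 0.709 in IL1b (0.284 to 1.13) and 0.293 in untreated cells (0.0960 to 0.491). Its partner Il1rap had 4.09 FPKM in TNFa, 3.34 in IL1b and 1.94 in untreated cells. The decoy receptor Il1r2, which binds IL1 without signalling, had 2.29 FPKM in TNFa, 2.31 in IL1b and 0.116 in untreated cells. Transcript levels of this size do not show how much receptor protein the cells carried.

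Each cytokine gene was on in both stimulated libraries. Il1b had 157 FPKM in TNFa, 160.2 FPKM in IL1b and 3.93 FPKM in untreated cells. Tnf had 114 FPKM in TNFa (65.7 to 162), 185 FPKM in IL1b (105 to 264) and 7.11 FPKM in untreated cells, a log2 difference of -0.69 with overlapping bounds. Both genes were therefore more than 2-fold above untreated with either stimulus, a change that 1144 genes (8.92%) showed in TNFa and 931 genes (7.31%) in IL1b. The IL1 receptor antagonist Il1rn, which blocks Il1r1, was 2.01-fold higher in TNFa than in IL1b on the FPKM + 1 scale, with 440.3 FPKM in TNFa (274 to 606), 219 FPKM in IL1b (149 to 289) and 24.4 FPKM in untreated cells. It lay just past the 2-fold rule and its bounds overlapped. Tnf and Il1b themselves differed by less than 2-fold.

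Most signalling genes of both routes lay within 2-fold, as did most genes compared, of which 363 of 12353 (2.94%) were 2-fold apart. Of 28 genes of the TNF receptor pathway that were compared, 1 was higher and 0 lower in TNFa, with a median log2 difference of 0.051, and of 22 genes of the IL1 receptor pathway, 1 was higher and 0 lower, with a median of 0.078. The member that passed in the TNF list was Traf1, an adaptor of TNF receptors, with 115 FPKM in TNFa (88.7 to 142), 45.9 in IL1b (35.2 to 56.6) and 9.97 in untreated cells. The member in the IL1 list was Il1rn. Myd88, the adaptor of the IL1 receptor, had 112 FPKM in TNFa, 98.8 in IL1b and 74.0 in untreated cells. Of 27 NF-kB subunits, inhibitors and feedback genes, 0 were higher and 1 was lower in TNFa, with a median of 0.10. Nfkbia, the inhibitor that NF-kB induces against itself, had 311 FPKM in TNFa, 270.4 in IL1b and 53.4 in untreated cells, and Tnfaip3, the deubiquitinase A20, had 85.5 in TNFa, 61.8 in IL1b and 6.64 in untreated cells. Both of these feedback genes differed between the stimuli by less than 2-fold, and both were more than 2-fold above the untreated library with each.

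Nfkbiz was the exception in that list. It encodes IkB-zeta, a nuclear cofactor that later NF-kB genes need. It lies at chr16:55811488-55839012 in mm9 and had 7.26 FPKM in TNFa (4.87 to 9.65), 21.8 FPKM in IL1b (14.54 to 29.1) and 4.58 FPKM in untreated cells (2.04 to 7.13), a log2 difference of -1.46. The bounds of TNFa and untreated cells overlapped, and the IL1b value stood above both. Of the other stimuli, MALP2 gave 119.6, CpG 191, IFNg 18.9, TGFb1 5.00 and IL4 0.541 FPKM, so that IFNg lay near the IL1b value. Zc3h12a, the RNase Regnase-1, had 18.4 FPKM in TNFa, 32.7 in IL1b and 11.8 in untreated cells, a log2 difference of -0.80 within the 2-fold rule.

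NF-kB target genes with known effector roles were the list with the most members past the rule. Of 36 compared, 14 were higher and 1 was lower in TNFa, 28 lay above 0, and the median log2 difference was 0.34. On the FPKM + 1 scale, the protein-coding gene with separate bounds and the highest log2 difference was Ptges, the synthase for the last step of prostaglandin E2, at chr2:30744991-30785383 in mm9. It had 230.2 FPKM in TNFa (141 to 319.7), 27.4 FPKM in IL1b (18.5 to 36.3) and 1.06 FPKM in untreated cells, a fold of 8.13 on the FPKM + 1 scale. Both stimuli had Ptges more than 2-fold above untreated cells, and the bounds of the 2 stimulated libraries stood far apart. With a pseudocount of 0.1 FPKM, which gives low values more weight, the log2 difference was 3.06 for Ptges, less than 3.13 for Ccl22 and 3.29 for Gng4. The step before it did not follow. Ptgs2, the inducible cyclooxygenase, had 5.86 FPKM in TNFa, 5.26 in IL1b and 0.665 in untreated cells, and Ptgs1, the constitutive one, 1.99 in TNFa, 3.01 in IL1b and 9.01 in untreated cells. Of the 16 genes of prostaglandin and leukotriene synthesis and their receptors, Ptges alone passed the rule between TNFa and IL1b, and the median was -0.0045.

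Matrix metalloproteinases, which cut collagen and other matrix proteins, held 4 of the higher genes. Mmp14, a membrane-bound enzyme at chr14:55050441-55060095 in mm9, had 173 FPKM in TNFa (72.2 to 273), 34.1 FPKM in IL1b (16.7 to 51.4) and 4.52 FPKM in untreated cells, a log2 difference of 2.31. The gelatinase Mmp9 had 15.0 FPKM in TNFa, 2.37 in IL1b and 0.745 in untreated cells, and the collagenase Mmp13 had 73.1 in TNFa, 20.3 in IL1b and 1.57 in untreated cells. Mmp25, also membrane-bound, had 3.96 FPKM in TNFa, 0.510 in IL1b and 0.149 in untreated cells. All 4 had separate bounds, and all 4 had their highest value of the 3 libraries in TNFa. The other 18 genes of the list of metalloproteinases, TIMPs and ADAMs lay within 2-fold, among them Mmp12, the macrophage elastase, with 113 FPKM in TNFa, 108 in IL1b and 65.9 in untreated cells. The list's median was 0.10.

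Chemokines went both ways. Of 22 compared, 4 were higher in TNFa (Ccl22, Ccl5, Ccl17 and Cxcl3), 3 were lower (Cxcl1, Cxcl5 and Ccl7), and the median was 0.15. Ccl22, a ligand of Ccr4 that attracts regulatory and type 2 helper T cells, lies at chr8:97269490-97275599 in mm9 and had 36.4 FPKM in TNFa (17.3 to 55.5), 4.07 FPKM in IL1b (1.77 to 6.38) and 0.730 FPKM in untreated cells, a fold of 7.37. Ccl17, the other Ccr4 ligand, had 2.72 FPKM in TNFa and 0.647 FPKM in IL1b and was listed at 0 in untreated cells. Ccl5, a chemokine for T cells and monocytes at chr11:83339280-83344020 in mm9, had 128 FPKM in TNFa (55.1 to 201), 19.9 FPKM in IL1b (8.65 to 31.1) and 23.2 FPKM in untreated cells (9.12 to 37.2). The TNFa value stood above the untreated bounds and the IL1b value inside them. In the authors' deposited table, the q-value of Ccl5 against untreated cells was 0.00063 for TNFa and 0.883 for IL1b.

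The neutrophil-attracting chemokines, which bind Cxcr2, were split among themselves. Cxcl1, at chr5:91320267-91322141 in mm9, had 7.33 FPKM in TNFa (2.70 to 11.96), 30.5 FPKM in IL1b (14.45 to 46.5) and 0.674 FPKM in untreated cells, a log2 difference of -1.92 with separate bounds. Cxcl5 was also lower, with 0.212 FPKM in TNFa, 1.66 in IL1b and 0.250 in untreated cells. Cxcl3 was higher instead, with 35.2 FPKM in TNFa (15.2 to 55.3), 15.0 FPKM in IL1b (6.82 to 23.1) and 0.255 FPKM in untreated cells, though its bounds overlapped, and Cxcl2 lay within 2-fold at 75.7 in TNFa and 93.7 in IL1b. Both TNFa and IL1b values of Cxcl1 were above the untreated one by more than 2-fold. Of the Ccr2 ligands that attract monocytes, Ccl7 was lower with overlapping bounds, at 62.6 FPKM in TNFa, 128 in IL1b and 4.52 in untreated cells, and Ccl2 had 113 in TNFa, 167 in IL1b and 9.07 in untreated cells. Ccl3 and Ccl4, which also attract monocytes and T cells, had log2 differences of -0.95 and -0.63, on the other side of 0 from Ccl5.

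The promoters of the chemokines at the 2 ends of the list are shown because NF-kB, the factor both receptors activate, binds sites that start with GGG and end with CC after 5 bases of any kind, and most tightly those that read GGGA, any base, TTTCC. Each sequence holds the 250 bases before the start of the gene, 5′ to 3′ on the gene's strand, from RefSeq on build GRCm38.p6, at chr5:90890995-90891244 on the plus strand for Cxcl1 and chr8:94745434-94745683 on the plus strand for Ccl22, with capitals for matches on either strand to the stricter form in Cxcl1 and to the looser form in Ccl22.
Cxcl1: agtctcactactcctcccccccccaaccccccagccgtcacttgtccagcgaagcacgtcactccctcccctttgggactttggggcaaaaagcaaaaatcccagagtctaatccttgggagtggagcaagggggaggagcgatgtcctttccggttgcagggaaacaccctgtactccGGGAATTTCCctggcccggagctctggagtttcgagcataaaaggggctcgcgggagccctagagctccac
Ccl22: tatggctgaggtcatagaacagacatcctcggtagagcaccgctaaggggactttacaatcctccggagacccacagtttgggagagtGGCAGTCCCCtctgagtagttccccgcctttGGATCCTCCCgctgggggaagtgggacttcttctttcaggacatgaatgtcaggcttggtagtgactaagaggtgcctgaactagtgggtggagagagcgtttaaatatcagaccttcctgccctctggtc
The match to the stricter form in Cxcl1 runs from -71 to -62, counted from the start of the gene. Other matches to the looser form in Cxcl1 are not marked, so the numbers of marked matches in these promoters cannot be compared. In Ccl22 there are 2 matches, from -162 to -153 and from -131 to -122, and none to the stricter form. The looser motif is in 45.8% of all 32851 promoters of this length, in 61.6% of the 138 promoters of genes higher in TNFa and in 63.8% of the 58 promoters of genes lower in TNFa. It is also in 62.3% of the 69 promoters of the DNA replication list described below and in 50% of the 44 promoters of the interferon list. Any match to the stricter form is also one to the looser form. The stricter form is in 0.356% of all promoters, in 1 promoter of the higher genes and in 1 of the lower genes. AP-1 sites, TGANTCA on either strand, are in 6.75% of all promoters, 10.1% of those of higher genes and 6.90% of those of lower genes.

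Interferon response genes leaned towards TNFa almost without exception. Of 48 compared, 8 were higher and 0 lower in TNFa than in IL1b, 47 lay above 0, and the median log2 difference was 0.73, against -0.012 over all genes. Isg15, a ubiquitin-like protein, had 189 FPKM in TNFa (82.8 to 294), 86.3 FPKM in IL1b (42.0 to 131) and 111 FPKM in untreated cells (48.7 to 173). The DNA sensor genes Ifi203 and Ifi205 were 2.62-fold and 2.39-fold higher on the FPKM + 1 scale. Ifi203 had 79.9 FPKM in TNFa, 29.9 in IL1b and 20.99 in untreated cells. Within 2-fold but on the same side were Ifit1, a binder of viral RNA, at 85.6 FPKM in TNFa, 42.7 in IL1b and 32.4 in untreated cells, and Rsad2, the antiviral enzyme viperin, at 70.0 in TNFa, 36.8 in IL1b and 28.2 in untreated cells. The one member below 0 was Ifi27l2a, with 446 FPKM in TNFa, 455 in IL1b and 905 in untreated cells.

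Against the untreated library, the same 48 genes had a median log2 ratio of 0.19 in TNFa, where 30 were above 0, and of -0.39 in IL1b, where 9 were above 0. Both ratios share 1 untreated library. Oasl2, an oligoadenylate synthetase-like protein, had 140.0 FPKM in TNFa, 71.8 in IL1b and 225 in untreated cells, so the untreated value was the highest of the 3. For Irf7, the factor that amplifies interferon production, the values were 145 FPKM in TNFa, 96.1 in IL1b and 234 in untreated cells, in the same order as those of Oasl2. Cxcl10, a chemokine of the interferon response, had 323 FPKM in TNFa, 227 in IL1b and 26.9 in untreated cells and stood more than 2-fold above untreated with both. The list therefore holds genes with values above the untreated one in both stimulated libraries, in TNFa alone and in neither.

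Guanylate-binding proteins and related GTPases, which interferon induces against intracellular microbes, made up a list written after values were seen, which shares Gbp2, Gbp3, Gbp7, Irgm1, Igtp, Iigp1 and Ifi47 with the interferon list and so is no separate evidence. Of 13 compared, 4 were higher and 0 lower in TNFa, all 13 lay above 0, and the median was 0.78. Gbp3 had 14.4 FPKM in TNFa (8.46 to 20.4), 3.21 FPKM in IL1b (1.98 to 4.43) and 5.19 FPKM in untreated cells (2.81 to 7.57). Gbp2 had 65.8 FPKM in TNFa, 19.2 in IL1b and 24.2 in untreated cells, and Gbp2b had 23.7 in TNFa, 6.84 in IL1b and 3.93 in untreated cells. In all 3 the TNFa value was the highest, the bounds of TNFa and IL1b were separate, and the ratio to untreated cells was more than 2-fold in TNFa and under it in IL1b. These genes are near copies of each other and can share reads, so their separate values are uncertain. IFNg, the classical inducer of the family, gave 4565 FPKM of Gbp2.

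The interferon gene itself was barely seen. Ifnb1 had 0.192 FPKM in TNFa (0.0110 to 0.374), 0.145 FPKM in IL1b (0.0153 to 0.275) and 0.0525 FPKM in untreated cells, and Ifna2 and Ifna4 were listed at 0 in all 3 libraries. The bounds of Ifnb1 in TNFa and IL1b overlapped. Of 16 genes of the type I interferon loop, which covers its receptors, STATs, IRFs and SOCS inhibitors, 0 passed the rule, yet all 16 lay above 0, with a median of 0.35. Irf1, an interferon-inducible transcription factor, had 79.2 FPKM in TNFa, 79.2 in IL1b and 80.1 in untreated cells.

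Antigen presentation followed the same side. Of 19 genes of MHC class I and its peptide supply, 1 was higher and 0 lower in TNFa, and 17 lay above 0, with a median of 0.47. Tap2, a subunit of the transporter that carries peptides into the endoplasmic reticulum, had 66.6 FPKM in TNFa (40.8 to 92.4), 27.3 FPKM in IL1b (15.4 to 39.2) and 44.4 FPKM in untreated cells. The immunoproteasome subunit Psmb10 had 123 FPKM in TNFa, 65.9 in IL1b and 87.9 in untreated cells, within 2-fold. Of 8 genes of MHC class II, all lay above 0, with a median of 0.74, and H2-Ab1 was higher at 112 FPKM in TNFa, 49.98 in IL1b and 43.8 in untreated cells with overlapping bounds. Its partner chain H2-Aa had 134 FPKM in TNFa, 78.8 in IL1b and 73.9 in untreated cells, and the master regulator Ciita 1.65 in TNFa, 0.591 in IL1b and 3.09 in untreated cells. H2 genes can share reads, so single members are uncertain. The 4 dendritic cell markers compared had a median of 0.80 on the same side, and their part in the values of MHC class II, Ccl22, Ccl17 and Cd274 was not tested.

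The promoter of Isg15 is shown for the sequence that interferon-activated factors bind. It covers chr4:156200819-156201068 on the minus strand of GRCm38.p6, the 250 bases before the start from RefSeq, read 5′ to 3′ on the gene's strand, with capitals for matches on either strand to GAAA, 2 bases of any kind and GAAA again.
Isg15: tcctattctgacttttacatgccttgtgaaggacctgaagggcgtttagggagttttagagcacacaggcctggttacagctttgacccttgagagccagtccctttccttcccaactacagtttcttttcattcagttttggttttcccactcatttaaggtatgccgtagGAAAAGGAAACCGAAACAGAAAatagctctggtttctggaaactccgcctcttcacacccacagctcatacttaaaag
The capitals hold 3 matches that overlap, from -78 to -57 counted from the start. This motif is in 2.98% of all 32851 promoters and in 22 (50%) of the 44 promoters found for 36 genes of the interferon list. It is in 7.25% of the promoters of genes higher in TNFa and in 0 of the 58 promoters of genes lower in TNFa. A match is a description of the letters and not evidence of binding.

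**Figure D3:**
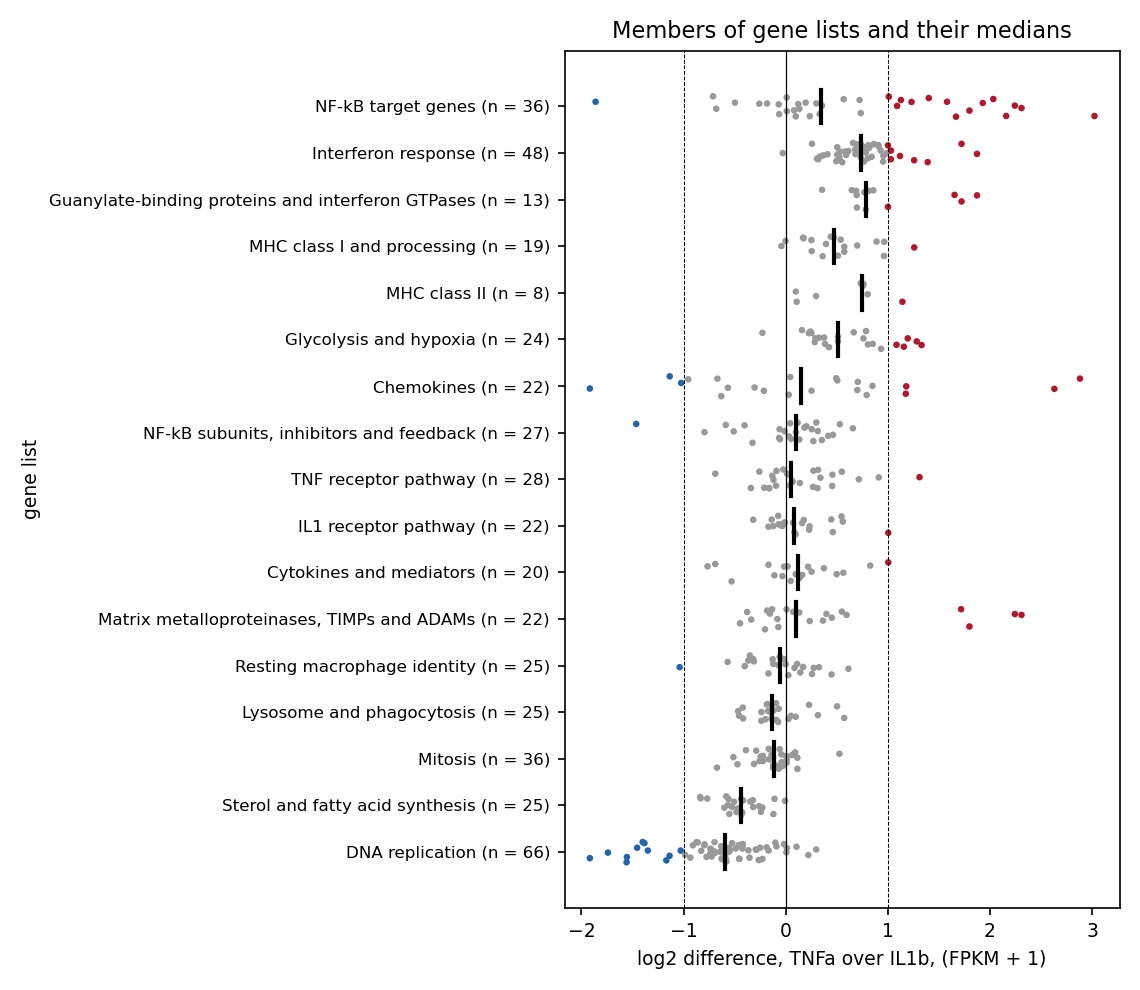
Log2 difference of TNFa over IL1b (FPKM + 1) for each compared gene of selected lists, in colour where at least 2-fold, with a black bar at the list's median. Of the interferon response genes 47 of 48 and of their GTPases 13 of 13 lie right of 0 (medians 0.73 and 0.78), and 61 of 66 DNA replication genes and 25 of 25 sterol synthesis genes lie left of it (medians -0.59 and -0.44).

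Genes of DNA replication formed the clearest group on the IL1b side. The cell cycle list had 28 genes compared, of which 0 were higher and 7 lower in TNFa, with a median of -0.42. A longer list of 66 replication genes, written after those values were seen, had 0 higher, 11 lower, 5 above 0 and a median of -0.59. It shares members such as Mcm2 with the cell cycle list and so is no separate evidence. The 11 included all 6 subunits of the MCM helicase, which opens DNA at replication origins, and Cdt1, which loads it. Mcm2, at chr6:88833469-88848774 in mm9, had 4.13 FPKM in TNFa (1.69 to 6.58), 18.4 FPKM in IL1b (8.99 to 27.8) and 8.06 FPKM in untreated cells (3.49 to 12.6). Mcm5 had 8.11 FPKM in TNFa (4.20 to 12.01), 25.8 FPKM in IL1b (14.1 to 37.5) and 11.1 FPKM in untreated cells. In both the IL1b value was the highest of the 3 and the TNFa value the lowest.

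The other helicase subunits had log2 differences between -1.40 (Mcm7) and -1.14 (Mcm6), with overlapping bounds for Mcm3 and Mcm6. Uhrf1, which guides maintenance DNA methylation behind the fork, had 3.18 FPKM in TNFa, 11.3 in IL1b and 4.51 in untreated cells. Ung, a glycosylase that removes uracil from DNA, had 0.679 FPKM in TNFa, 4.61 in IL1b and 1.91 in untreated cells. Timeless, a fork protection protein, had 1.56 FPKM in TNFa, 6.03 in IL1b and 2.42 in untreated cells. These genes keep the order of Mcm2 in the 3 libraries. Pcna, the sliding clamp, was far more abundant and within 2-fold, at 109 FPKM in TNFa, 149 in IL1b and 88.2 in untreated cells.

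Genes that act in mitosis had no member past the rule. Of 36 compared, 0 were higher and 0 lower, 10 lay above 0 and the median was -0.11, in a list also written after values were seen. Ccnb2, a mitotic cyclin, had 4.46 FPKM in TNFa, 5.37 in IL1b and 15.7 in untreated cells, and Plk1, a mitotic kinase, 2.63 in TNFa, 2.48 in IL1b and 5.71 in untreated cells. Cdk1 had the lowest difference of the list, with 15.5 FPKM in TNFa and 25.3 in IL1b. Against the untreated library the median log2 ratio of the mitosis list was -0.78 in TNFa and -0.71 in IL1b, and that of the replication list was -0.64 in TNFa and 0.033 in IL1b. TGFb1, the stimulus with the most Mcm2 of the other 5, gave 19.7 FPKM of Mcm2 and 26.7 FPKM of Mcm5.

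**Figure D4:**
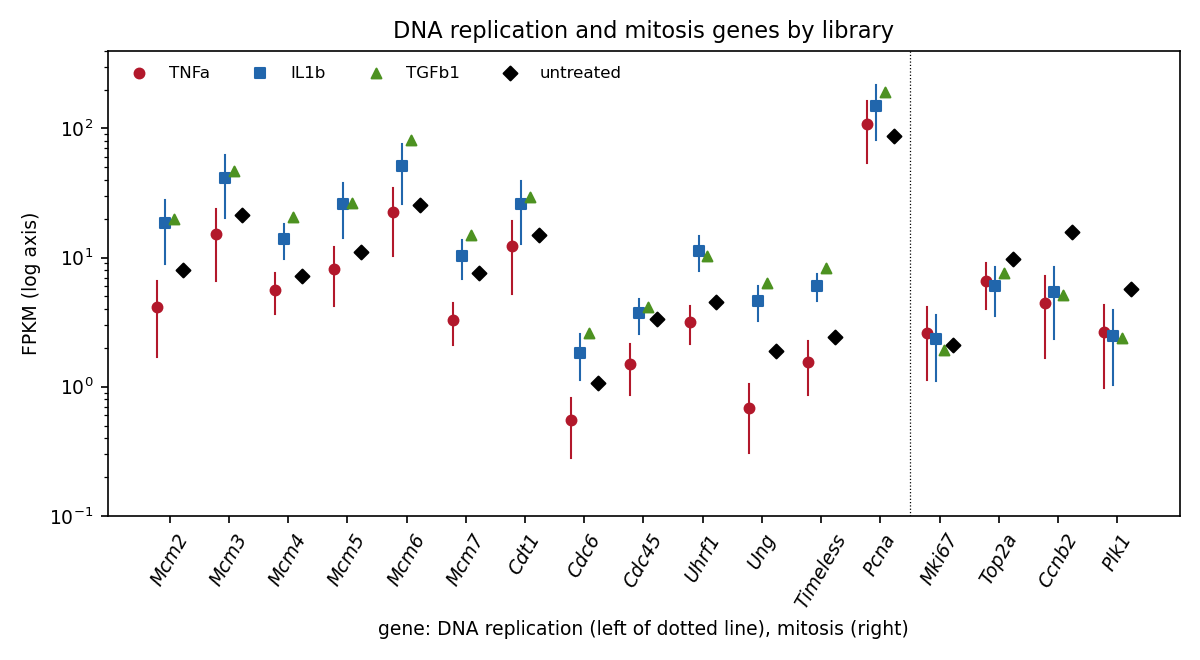
FPKM on a log axis of replication genes (left of the dotted line) and mitosis or proliferation genes (right of it) in the TNFa, IL1b, TGFb1 and untreated libraries, 1 library each, with the authors' bounds as bars for TNFa and IL1b. Mcm2 stands at 4.13 FPKM in TNFa and 18.4 in IL1b, while the mitotic genes at the right lie close together in these stimuli.

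The promoter of Mcm5 is shown for the sites of E2F, the factor family that controls replication genes. It covers chr8:75109259-75109508 on the plus strand of GRCm38.p6, the 250 bases before the start from RefSeq, read 5′ to 3′, with matches to TTTNGCGC on either strand in capitals.
Mcm5: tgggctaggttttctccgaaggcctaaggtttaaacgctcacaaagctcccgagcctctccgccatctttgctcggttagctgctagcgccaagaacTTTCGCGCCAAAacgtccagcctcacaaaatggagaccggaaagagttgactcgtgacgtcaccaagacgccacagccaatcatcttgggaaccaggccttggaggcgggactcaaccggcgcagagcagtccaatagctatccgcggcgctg
The 2 matches overlap, on opposite strands, from -153 to -142 counted from the start. This motif, searched after values were seen, is in 1.13% of all 32851 promoters, in 6 (8.70%) of the 69 promoters found for 55 replication genes, in 5.17% of those of genes lower in TNFa and in 0.725% of those of genes higher in TNFa.

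Surface receptors and adhesion molecules that engage other cells went mostly to the TNFa side. Of 19 costimulation and adhesion genes, 4 were higher and 1 lower in TNFa, with a median of 0.24. Vcam1, the ligand of the integrin made with Itga4, had 20.3 FPKM in TNFa (10.0 to 30.6), 3.78 FPKM in IL1b (1.80 to 5.76) and 0.524 FPKM in untreated cells. Cd40, which receives help from T cells, had 146 FPKM in TNFa, 54.8 in IL1b and 14.9 in untreated cells, with separate bounds. The checkpoint ligand Cd274 (PD-L1) had 20.0 FPKM in TNFa, 8.15 in IL1b and 8.91 in untreated cells, with overlapping bounds. The other checkpoint and costimulation ligands were nearer to each other, as with Cd86 at 24.02 in TNFa and 26.6 in IL1b. Icosl, the ligand of the T cell receptor ICOS, was the one that was lower, with 16.4 FPKM in TNFa, 37.7 in IL1b and 11.3 in untreated cells and overlapping bounds.

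Cd83, an activation marker that stabilises MHC class II and Cd86 at the surface, lay on the opposite side from Cd40. It had 27.0 FPKM in TNFa (12.53 to 41.4), 101 FPKM in IL1b (51.0 to 150.3) and 58.0 FPKM in untreated cells (28.5 to 87.5). The untreated value lay between the 2 stimuli. Slamf8, a surface receptor of the SLAM family, was higher in TNFa, with 27.2 FPKM in TNFa, 5.52 in IL1b and 4.78 in untreated cells.

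Receptors for microbial and damage ligands included 5 higher and 0 lower of 21 compared, with a median of 0.50, in a list written after values were seen. Tarm1, an activating immunoglobulin-like receptor of myeloid cells, had 30.5 FPKM in TNFa, 5.89 in IL1b and 0.245 in untreated cells. Clec4e (Mincle), which binds mycobacterial glycolipid, had 978 FPKM in TNFa (336 to 1619), 307 FPKM in IL1b (146 to 469) and 22.5 FPKM in untreated cells, so that its bounds overlapped. Olr1 (LOX-1), a receptor for oxidised LDL, had 61.1 FPKM in TNFa, 19.8 in IL1b and 0.0341 in untreated cells. All 3 were more than 2-fold above untreated cells with either stimulus. The scavenger receptor Cd36 had 102 FPKM in TNFa, 141 in IL1b and 18.3 in untreated cells, on the other side of 0.

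Secreted defence proteins included the complement genes Cfb and C3, the 2 that passed of 16 complement genes compared, in a list written after values were seen, whose median was -0.017. Cfb, the protease of the alternative pathway convertase, had 15.3 FPKM in TNFa (12.3 to 18.4), 1.82 FPKM in IL1b (1.09 to 2.55) and 3.94 FPKM in untreated cells (2.78 to 5.09). The 3 ranges do not overlap, with TNFa above and IL1b below untreated cells. C3, the protein that convertase cuts, had 111 FPKM in TNFa, 39.2 in IL1b and 33.1 in untreated cells, with overlapping bounds. The C1q chains, which macrophages make in large amounts, were alike, as with C1qa at 683 in TNFa and 691 in IL1b. The acute-phase protein Saa3 had 187 FPKM in TNFa (82.1 to 292), 48.4 FPKM in IL1b (22.5 to 74.4) and 10.1 FPKM in untreated cells, far under the 4795 and 5446 FPKM of MALP2 and CpG.

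Transporters held the protein-coding gene with separate bounds and the lowest log2 difference on the FPKM + 1 scale. Slco2b1, an uptake carrier for organic anions at chr7:106806314-106859850 in mm9, had 2.22 FPKM in TNFa (1.10 to 3.34), 18.1 FPKM in IL1b (10.8 to 25.4) and 14.48 FPKM in untreated cells (7.33 to 21.6), 5.92-fold higher in IL1b on the FPKM + 1 scale. The IL1b value lay inside the untreated bounds and the TNFa value under them. TGFb1 gave 43.3 FPKM, while MALP2, CpG and IFNg gave 1.31, 1.18 and 1.21 FPKM. Of 22 transporters compared, 6 were higher and 2 lower in TNFa, with a median of 0.29. Slc7a2, which brings in arginine, had 68.0 FPKM in TNFa (45.4 to 90.6), 15.9 FPKM in IL1b (10.6 to 21.2) and 0.767 FPKM in untreated cells. Slco3a1, of the same family as Slco2b1, went the other way, with 18.5 FPKM in TNFa, 4.15 in IL1b and 3.85 in untreated cells.

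Sugar metabolism leaned towards TNFa. Of 24 genes of glycolysis and the hypoxia response, 5 were higher and 0 lower in TNFa, 23 lay above 0, and the median was 0.51. The glucose carrier Slc2a1 had 332 FPKM in TNFa, 156 in IL1b and 17.2 in untreated cells. Hk2, the inducible hexokinase, had 78.1 FPKM in TNFa, 30.5 in IL1b and 13.2 in untreated cells, and Pfkfb3, which raises the activator of phosphofructokinase, had 49.7 in TNFa, 21.1 in IL1b and 23.2 in untreated cells. Only Pfkfb3 of these had separate bounds. Hif1a, the hypoxia-inducible factor, lay within 2-fold at 90.6 FPKM in TNFa, 51.4 in IL1b and 12.47 in untreated cells.

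Acod1, which makes itaconate, had 996 FPKM in TNFa (339 to 1653), 307 FPKM in IL1b (146 to 469) and 6.401 FPKM in untreated cells, higher in TNFa with overlapping bounds. Of 26 antioxidant and iron genes, 4 were higher and 0 lower in TNFa, with a median of 0.27, and these were Acod1, the cystine carrier Slc7a11, the mitochondrial superoxide dismutase Sod2 and the thioredoxin reductase Txnrd1. Txnrd1 had separate bounds, at 379.9 FPKM in TNFa, 189 in IL1b and 74.0 in untreated cells. Alas1, the first enzyme of haem synthesis, had 345 FPKM in TNFa (269 to 420.0), 105 FPKM in IL1b (83.1 to 126) and 56.5 FPKM in untreated cells. Of 16 enzymes of haem, purine and pyrimidine metabolism, a list written after values were seen, 3 were higher, 0 lower and the median was -0.13. The 3 were Alas1, Gda and Upp1, and the other 13 lay within 2-fold, between -0.32 for Urod and 0.61 for Hmox1.

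Sterol and fatty acid synthesis lay wholly on the IL1b side without a member past the rule. Of 25 genes compared, 0 were higher and 0 lower, 0 lay above 0, and the median was -0.44. Insig1, which holds the sterol sensor in place, had 57.6 FPKM in TNFa, 104 in IL1b and 64.5 in untreated cells, and Lss, which closes the sterol rings, had 24.2 in TNFa, 43.8 in IL1b and 26.8 in untreated cells. Differences of this size fall inside the authors' bounds of single genes, which reached a median of 52.0% of the value to either side in TNFa and 47.8% in IL1b. Of 16 LXR and PPARg targets, 1 was higher and 0 lower, with a median of -0.0072, and the higher one was the cholesterol exporter Abca1, with 53.8 FPKM in TNFa, 22.9 in IL1b and 41.0 in untreated cells and overlapping bounds. Of 25 lysosomal and phagocytic genes, 0 passed and the median was -0.13.

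Several of the lowest genes belonged to none of these groups. Dmpk, the myotonic dystrophy protein kinase, had 4.24 FPKM in TNFa (2.94 to 5.55), 15.3 FPKM in IL1b (12.1 to 18.4) and 1.09 FPKM in untreated cells. Smpd3, a neutral sphingomyelinase, had 0.296 FPKM in TNFa, 2.70 in IL1b and 0.164 in untreated cells. Both had their highest value of these 3 libraries in IL1b. Chn2, which switches off the small GTPase Rac, had 4.95 FPKM in TNFa (3.77 to 6.14), 18.6 FPKM in IL1b (14.6 to 22.7) and 20.2 FPKM in untreated cells, so that IL1b lay near untreated and TNFa under it. Rnf150, a RING domain protein, had 1.27 FPKM in TNFa, 5.76 in IL1b and 13.0 in untreated cells, with both stimuli more than 2-fold below untreated cells, a change that 1332 genes (10.4%) showed in TNFa and 1092 genes (8.57%) in IL1b. On the higher side, Gng4, a G protein gamma subunit, had 8.78 FPKM in TNFa (3.80 to 13.8), 0.810 FPKM in IL1b (0.315 to 1.304) and 0.0241 FPKM in untreated cells. Dgcr8, which processes microRNA precursors, had the lowest log2 difference of any protein-coding gene on the FPKM + 1 scale, at -2.76, with overlapping bounds, and is named here after its values were seen.

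The macrophage label held in both libraries. Csf1r, the CSF1 receptor, had 1429.7 FPKM in TNFa, 1196 in IL1b and 1462 in untreated cells, and Adgre1 (F4/80) had 605 in TNFa, 560.2 in IL1b and 829.9 in untreated cells. Lyz2, Ctsb and Fdft1 were listed at 0 in all 3 libraries, and an exact 0 for genes that macrophages are known to use can be a failed estimate. Of 25 genes of resting macrophage identity, 0 were higher and 1 lower in TNFa, with a median of -0.054. The one was Mertk, a receptor for dying cells, with 1.70 FPKM in TNFa, 4.55 in IL1b and 23.1 in untreated cells and overlapping bounds.

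Markers of other cells were mostly below 1 FPKM in both stimulated libraries, except those of neutrophils and fibroblasts, and 2 of those compared passed the rule. Of 16 T and NK cell markers, 2 were compared and neither passed, 14, the T cell receptor subunit Cd3e among them, were below 1 FPKM in both stimulated libraries, and the summed level was 36.3 FPKM in TNFa, 34.8 in IL1b and 35.7 in untreated cells. B cell markers summed to 66.3 FPKM in TNFa, 76.7 in IL1b and 244.6 in untreated cells, mostly Ighm and Blnk, with Pax5 listed at 0 and 0 of 5 past the rule between the stimuli. Of 15 neutrophil markers, 9 were compared and 0 passed the rule, and the 15 summed to 293.7 FPKM in TNFa, 251.3 in IL1b and 313.9 in untreated cells. The granulocyte enzyme Mpo was among the 6 below 1 FPKM in both stimulated libraries, at 0.562 in TNFa and 0.448 in IL1b. Of 15 fibroblast markers, 11 were compared and 0 passed the rule, and the 15 summed to 116.0 FPKM in TNFa, 120.2 in IL1b and 111.5 in untreated cells. Dendritic cell markers summed to 39.1 FPKM in TNFa, 24.9 in IL1b and 75.4 in untreated cells, 3 of 4 compared lay above 0, the median was 0.80 and 1 passed, Fscn1 at 17.7 in TNFa and 8.04 in IL1b, while the defining markers Flt3 and Xcr1 were below 1 FPKM in all 3. Erythroid and megakaryocyte markers summed to 117.1 FPKM in TNFa, 131.4 in IL1b and 50.6 in untreated cells, and 1 of 4 passed, Car2 at 2.66 in TNFa and 0.379 in IL1b. The 1 mast cell marker compared did not pass. The part of other cells in the differences above was not tested.

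The other 5 stimulated libraries, which share no sample with the TNFa and IL1b libraries, show where the genes that separate these cytokines were high. Among the 81 protein-coding genes higher in TNFa with separate bounds, the highest of those 5 libraries was MALP2 or CpG for 50 (61.7%), against 29.0% of all protein-coding genes compared. It was IFNg for 25 (30.9%, against 20.7% of all), IL4 for 5 (6.17%, against 26.4%) and TGFb1 for 1 (1.23%, against 23.9%). Median levels of the 81 genes were 16.8 FPKM in TNFa, 5.24 in IL1b, 16.05 in MALP2, 18.1 in CpG, 11.2 in IFNg, 2.09 in IL4, 2.16 in TGFb1 and 2.09 in untreated cells. Among the 36 genes lower in TNFa, TGFb1 was the highest of the 5 for 22 (61.1%), against 23.9% of all protein-coding genes, and MALP2 or CpG for 2 (5.56%, against 29.0%). For the others of the 36 it was IFNg for 7 (19.4%, against 20.7%) and IL4 for 5 (13.9%, against 26.4%). The medians of the 36 were 3.60 FPKM in TNFa, 10.8 in IL1b, 3.56 in MALP2, 4.09 in CpG, 3.85 in IFNg, 6.64 in IL4, 10.2 in TGFb1 and 7.83 in untreated cells. Cxcl1 and Nfkbiz were the 2 for which MALP2 or CpG was highest, with 152 FPKM of Cxcl1 in MALP2 and 98.5 in CpG.

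The same genes can be set against the untreated library. They were chosen by TNFa against IL1b, so how they split between the 2 stimuli follows in part from the choice and is a description. Of the 81, 65 were at least 2-fold above untreated cells in TNFa and 22 in IL1b, while 0 in TNFa and 3 in IL1b were 2-fold below. Of the 36, 3 in TNFa and 14 in IL1b were at least 2-fold above untreated cells, and 14 in TNFa and 6 in IL1b were 2-fold below. These ratios use 1 untreated library for both stimuli. Of all 10042 protein-coding genes compared, 901 in TNFa and 728 in IL1b were at least 2-fold above untreated cells, and 1018 in TNFa and 835 in IL1b were 2-fold below.

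**Figure D5:**
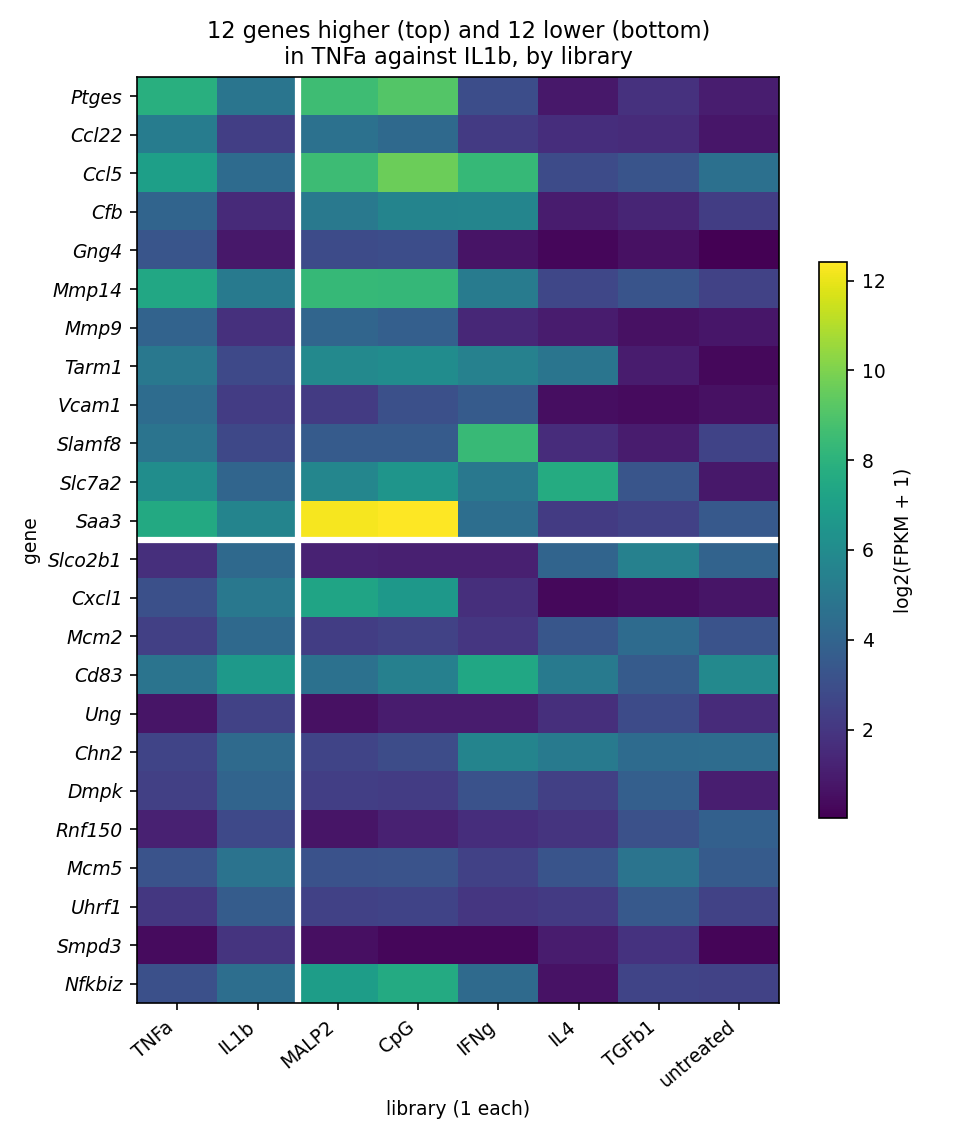
Log2(FPKM + 1) in each of the 8 libraries for the 12 genes with the highest and the 12 with the lowest log2 difference of TNFa over IL1b among protein-coding genes with separate bounds. Mmp14 and Ptges are bright in TNFa, MALP2 and CpG, and Slco2b1, Mcm2 and Ung have their highest values in TGFb1 and then in IL1b, while Cxcl1 and Nfkbiz are brightest in MALP2 and CpG.

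The remaining lists had few or no members past the rule. The 23 AP-1, EGR and ATF factors had 1 higher (Egr2, 18.9 FPKM in TNFa and 8.72 in IL1b) and 0 lower, with a median of 0.14. The 18 BCL2 family and apoptosis genes had 1 higher (Bcl2a1b, whose near copies can share reads) and 0 lower, with a median of 0.026, and the 18 MAP kinase phosphatases and RNA decay genes had 0 of either, with a median of -0.018. Among 20 cytokines and mediators, Il1rn alone passed, and the median was 0.12. The 8 chemokine receptors had 0 past the rule and a median of -0.14, and the 20 genes of Myc and ribosome biogenesis had 0 and a median of 0.13. The rule has a sharp edge, as Il1rn at 1.00 passed while the tetraspanin Cd82, with 265 FPKM in TNFa and 132 in IL1b, lay just short of it.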

How the data were processed

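Poly(A) RNA of 8 macrophage cultures was sequenced, 1 library per group, and the TNFa and IL1b libraries were grouped by their labels. The submitters' processing notes name TopHat 1.3.1, Cufflinks 1.2.1, Cuffdiff 1.2.1 and the build mm9. Tool options, the annotation, total reads and whether strand was kept are not given in the sources here. Genes that overlap or lie antisense to each other therefore cannot be told apart, and near-identical genes such as the Gbp, H2 and Bcl2a1 families can share reads. The authors deposited 1 table of FPKM with lower and upper bounds for each stimulus and its untreated baseline (per the file headers), with no level stated for the bounds. FPKM divides by transcript length and a library size, so abundant transcripts can lower all others. The untreated library is scaled differently in each stimulus's table, so that size is not its mapped total alone. A second deposited table holds the authors' q-value of each stimulus against untreated cells, and its log2 ratio column holds placeholders and was not used.

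The untreated values differ between tables by 1 factor each. All FPKM values and bounds were divided by it (1.00213 for the TNFa table and 1.01449 for the IL1b table). Genes needed status OK in both tables (36442 of 36806) and at least 1 FPKM in either library, and were called at a log2 ratio of FPKM + 1 of at least 1 in size, a scale that understates the change of low genes. Symbols were found for 31840 identifiers and not for 4966, in GENCODE M21. Coordinates are those of the tables in mm9, counted from 1, and span loci that can hold several genes. Promoters are from RefSeq on GRCm38.p6, found for 106 of 195 genes with a symbol that were higher and 41 of 123 that were lower. With 1 library per group, no test was made.

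The comparison, its members and the gene lists were chosen with earlier results of these data known. Named genes were the 12 highest and 12 lowest protein-coding genes with separate bounds, up to 4 called members of each of 33 lists (and of 6 more lists written after values were seen), and receptor, ligand and marker genes. Other list members are quoted as examples chosen after their values were seen, and some genes that the rule names are not described. Alternatives were a pseudocount of 0.1 FPKM, no floor or one of 5 FPKM, differences centred on the median, values not joined, and protein-coding genes alone. The calling rule was tested on simulated data. Python 3.11.15 was used with pandas 2.3.3, numpy 2.4.6 and matplotlib 3.10.9.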

Additional observations from a re-analysis of the deposited data

Results flagged for a closer look

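Genes were picked out here when their TNFa and IL1b values lay on opposite sides of the untreated value by at least 1.41-fold each. All of them are among the 72 named genes, most of which were chosen by their difference between TNFa and IL1b. Lying on opposite sides follows in part from that choice, and no share over all genes is given. With 1 library per stimulus, the difference between the stimuli was not tested for any of them. Cfb, a complement protease, had a log2 difference of 2.53 between TNFa and IL1b, above untreated cells with TNFa and below them with IL1b. Gbp3, an interferon-induced GTPase, had a difference of 1.87 in the same directions. Tap2, of the peptide transporter, had a difference of 1.26 and also lay above untreated cells with TNFa and below them with IL1b. The reverse held for the helicase subunit Mcm2, with a difference of -1.92, for the activation marker Cd83, with -1.86, and for the uracil glycosylase Ung, with -1.74, all below untreated cells with TNFa and above them with IL1b. Of these genes, Cfb alone had bounds that were separate in all 3 pairs of the TNFa, IL1b and untreated libraries. In the authors' deposited table, the q-values against untreated cells were 1.51e-12 for TNFa and 0.0132 for IL1b at Cfb, 0.0311 for TNFa and 0.0100 for IL1b at Ung, and 0.00911 for TNFa and 0.289 for IL1b at Gbp3. In the authors' deposited table they were 0.309 for TNFa and 0.116 for IL1b at Mcm2, 0.157 for TNFa and 0.311 for IL1b at Cd83, and 0.437 for TNFa and 0.318 for IL1b at Tap2, so at these 3 genes neither stimulus was below 0.05.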

How the results depend on the processing

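No paired analysis was possible because each stimulus has 1 library. Counts of genes at least 2-fold apart depended on the low values. With a pseudocount of 0.1 FPKM, 306 genes were higher and 235 lower in TNFa than in IL1b, in place of 209 and 154. With protein-coding genes alone, the counts were 134 higher and 56 lower. The genes left out, which are not protein-coding, were 75 of the 209 higher and 98 of the 154 lower. The share of higher genes among all past the rule was then 70.5%, against 57.6% with all genes. A floor of 5 FPKM gave 163 higher and 124 lower genes, centring on the median gene gave 216 and 150, and values that were not joined gave 201 and 155. No floor left the counts as they were, which was fixed in advance. A 2-fold ratio of FPKM + 1 needs at least 1 FPKM in the higher library. Of the 72 named genes, 10 moved by more than the error taken from the authors' bounds with a pseudocount of 0.1 FPKM, and 0 did with centring or without joining. Each of the 10 moved outward in its own direction, the only way that a smaller pseudocount can move a ratio. Of the 39 list medians, 7 moved and 31 did not with a floor of 5 FPKM, at which the mast cell list had no member left. The medians that moved numbered 5 with no floor, 4 with a pseudocount of 0.1 FPKM and 0 with centring or without joining. With that pseudocount the median was -0.76 for DNA replication, 1.02 for the interferon GTPases, 1.05 for dendritic cell markers and 0.65 for the mast cell marker. A floor of 5 FPKM put the medians of chemokines at 0.043, of prostaglandin genes at 0.12 and of the cell cycle list at -0.74, and no floor put that of MHC class II at 0.54 and of dendritic cell markers at 0.032. Depth is unknown, and genes near 1 FPKM, such as Il1r1 and Ifnb1, can be compared only loosely.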

Other observations

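Genes outside the lists, named here after their values were seen, gave further differences. Tnfrsf9 (4-1BB), a costimulatory receptor of the TNF receptor family, had 5.10 FPKM in TNFa, 1.09 FPKM in IL1b and 0.256 FPKM in untreated cells, with separate bounds between the stimuli. Tnfrsf14 (HVEM), of the same family, had 69.5 FPKM in TNFa, 22.9 in IL1b and 51.6 in untreated cells, so IL1b lay below and TNFa above the untreated value. Src, a tyrosine kinase, had 24.4 FPKM in TNFa, 7.70 in IL1b and 1.58 in untreated cells. All 3 were past the 2-fold rule. Cav1, the coat protein of caveolae, had 81.1 FPKM in TNFa, 34.7 in IL1b and 0.826 in untreated cells. Acsl1, which activates fatty acids as coenzyme A esters, had 118 FPKM in TNFa, 41.4 in IL1b and 21.8 in untreated cells. Slpi, a secreted inhibitor of neutrophil proteases, had 21.5 FPKM in TNFa, 5.62 in IL1b and 3.55 in untreated cells. These 3 also had separate bounds and their highest value in TNFa.

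On the other side, Itga6, the integrin subunit for laminin, had 61.3 FPKM in TNFa (43.2 to 79.5), 159 FPKM in IL1b (114 to 203) and 145 FPKM in untreated cells. Sulf2, which trims heparan sulfate, had 35.8 FPKM in TNFa, 93.6 in IL1b and 28.0 in untreated cells. Itga6 was near its untreated level in IL1b and Sulf2 was above it. The sialyltransferase St6gal1 had 11.96 FPKM in TNFa, 27.0 in IL1b and 127 in untreated cells, and Rasgrp3, an activator of RAS proteins, had 0.917 in TNFa, 3.90 in IL1b and 31.1 in untreated cells. For both of these the untreated value was the highest of the 3. Id3, an inhibitor of helix-loop-helix factors, had 38.1 FPKM in TNFa, 79.0 in IL1b and 4.01 in untreated cells, with overlapping bounds between the stimuli. The glucose carrier Slc2a3 was lower in TNFa, with 9.10 FPKM in TNFa, 22.2 in IL1b and 13.6 in untreated cells, opposite to Slc2a1.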
